A study of Mus musculus with 11 samples.

Results

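Expression of the cell cycle and DNA replication machinery in group 2 innate lymphoid cells (ILC2s) was examined through 41 genes for cyclins, cyclin-dependent kinases (CDKs) and their inhibitors, replication licensing and mitosis. The genes were listed by name and found in the count table by their Entrez Gene IDs: 5 were G1 cyclins and kinases, 4 were CDK inhibitors or RB, 7 acted at the G1/S transition, 15 in replication and 10 in G2 and mitosis. All 41 were among the 27179 genes of the table, and all 41 passed the filter on low counts that left 15028 genes for testing. ILC2s are tissue-resident lymphocytes that answer epithelial cytokines with type 2 cytokines. The cells came from large intestines of WT C57BL/6 mice, were sorted, and spent 3 h in culture. In every group, vehicle included, the medium contained 100 ng/ml of IL-2 and 100 ng/ml of IL-7, which are growth and survival cytokines of lymphocytes. The vehicle group (3 libraries) received nothing more. The other groups received ADM2 at 0.4 µg/ml (3 libraries), IL-25 at 100 ng/ml (3 libraries), or both at these doses (2 libraries, replicates 2 and 3). ADM2 (adrenomedullin 2) is a peptide of the calcitonin family whose receptor raises cyclic AMP, and IL-25 is an epithelial cytokine that activates ILC2s. The treatment field of the combined group reads "IL125 and ADM2", and its titles read IL25_ADM2.

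A cell enters the cycle when D-type cyclins, with CDK4 or CDK6, phosphorylate RB and release E2F factors, which raise cyclin E, CDC25A and the replication genes. In G1 the origin recognition complex, CDC6 and CDT1 load the MCM2 to MCM7 helicase onto DNA, and in S phase the helicase, the GINS complex, PCNA and the RFC clamp loader carry the fork. Cyclin A, cyclin B with CDK1, and the Aurora and Polo kinases then drive G2 and mitosis. CDK inhibitors such as p21 (Cdkn1a) and p27 (Cdkn1b) hold CDKs in check, and p21 and p27 can also help assemble cyclin D with its kinases.

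Total counts were 25809256 to 35445351 per library. Levels are in CPM (counts scaled to the size of each library, corrected by trimmed-mean factors of edgeR), and are given for single libraries in the order of their replicate numbers. Differences are log2 fold changes ± SE from edgeR's quasi-likelihood test over all 11 libraries, and genes past an adjusted p of 0.05 (Benjamini-Hochberg, over all 15028 genes) are named as called. No label ties a replicate to its own mouse, and the p-values therefore cover only the variation among these libraries. The summed level of 9 ILC2 markers, led by Il5, was 3163 to 3352 CPM in vehicle, 5704 to 5883 CPM with ADM2, 10090 to 11335 CPM with IL-25 and 19180.5 to 21779.8 CPM with both. Over all libraries Il5 had 495 to 14859 CPM, Il13 135 to 3078 and Areg 59.8 to 641. Gata3 had 710 to 1372 CPM, Il1rl1 427 to 1090, Il17rb 105 to 349 and Rora 68.3 to 343. Il7r had 262 to 388 CPM and Klrg1 354 to 643. The sum is not read as a measure of ILC2 content. Of 5 mast cell markers, Mcpt2, Mcpt4 and Ms4a2 had no count in any library. Among 8 T cell markers, Cd3d, Cd3e, Cd4, Cd8a, Cd8b1 and Cd5 stayed at or below 3.45 CPM. Cd3g lay at 4.27 to 7.54 CPM and Lat at 19.1 to 52.4 CPM. The 5 epithelial markers, almost wholly Epcam, summed to 158 to 188 CPM in vehicle and 143 to 168 CPM with IL-25, against 80.9 to 89.1 CPM with ADM2 and 66.0 to 85.7 CPM with both. The 8 T cell markers, mostly Lat, summed to 51.4 to 64.3 CPM in vehicle and 27.0 to 31.2 CPM with IL-25. Their sum was 48.0 to 50.5 CPM with ADM2 and 44.2 to 44.5 CPM with both. The 4 endothelial markers, mostly Pecam1, summed to 134 to 135 CPM in vehicle, 111 to 113 CPM with ADM2, 281 to 366 CPM with IL-25 and 260.4 to 289.8 CPM with both. The 6 myeloid markers summed to 9.39 to 11.2 CPM in vehicle, 20.1 to 23.0 CPM with ADM2, 11.02 to 17.0 CPM with IL-25 and 21.1 to 21.5 CPM with both. Over all libraries the B cell list summed to 7.32 to 21.0 CPM, the NK and ILC1 list to 19.6 to 25.4 CPM and the fibroblast list to 76.3 to 153 CPM. The plasma cell list, almost wholly Jchain, summed to 259 to 493 CPM, with Mzb1 at 5.88 to 10.6 CPM and Sdc1 at 3.66 to 8.62 CPM. The part of these marker levels in the results was not tested. In bulk samples, fewer cells that transcribe a gene and less RNA per cell cannot be told apart.

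The members called in at least 2 of 4 comparisons were the G1 kinases Cdk4 and Cdk6, the cyclins Ccnd2 and Ccnd3, the inhibitor Cdkn1a and the helicase subunits Mcm6 and Mcm7. ADM2 against vehicle called 3 members higher (Ccnd1, Cdkn1a and Mcm4) and 4 lower (Cdk4, Cdk6, Mcm6 and Mcm7), 7.32% and 9.76% of the 41, where 7.39% of all genes tested were called higher and 7.43% lower. IL-25 against vehicle called 4 higher (Ccnd2, Cdk4, Cdkn1a and Mcm3) and 5 lower (Ccnd3, Cdkn1b, Cdkn2c, Mcm6 and Plk1), against 13% and 10.4% of all genes. Adding ADM2 to IL-25 called 2 higher (Ccnd3 and Cdkn1a) and 5 lower (Ccnd2, Cdk4, Cdk6, Mcm6 and Mcm7) than IL-25 alone, against 6.53% and 8.1% of all genes. IL-25 plus ADM2 against ADM2 alone called 1 higher (Cdkn1a) and 1 lower (Ccnd3), against 6.17% and 4.68%. Each count lay within 2 genes of the number that the share over all genes would give among 41. With upper-quartile scaling the split of all calls turned: 44.6% of the IL-25 calls were higher in place of 55.6%, and 57.4% of the calls for ADM2 added to IL-25 in place of 44.6%. That scaling moved the median of all genes by -0.071 and 0.071 in those comparisons. The first and second comparisons share the vehicle libraries, and the third shares the IL-25 libraries with the second. The fourth shares the ADM2 libraries with the first and the libraries with both agents with the third.

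**Figure D1:**
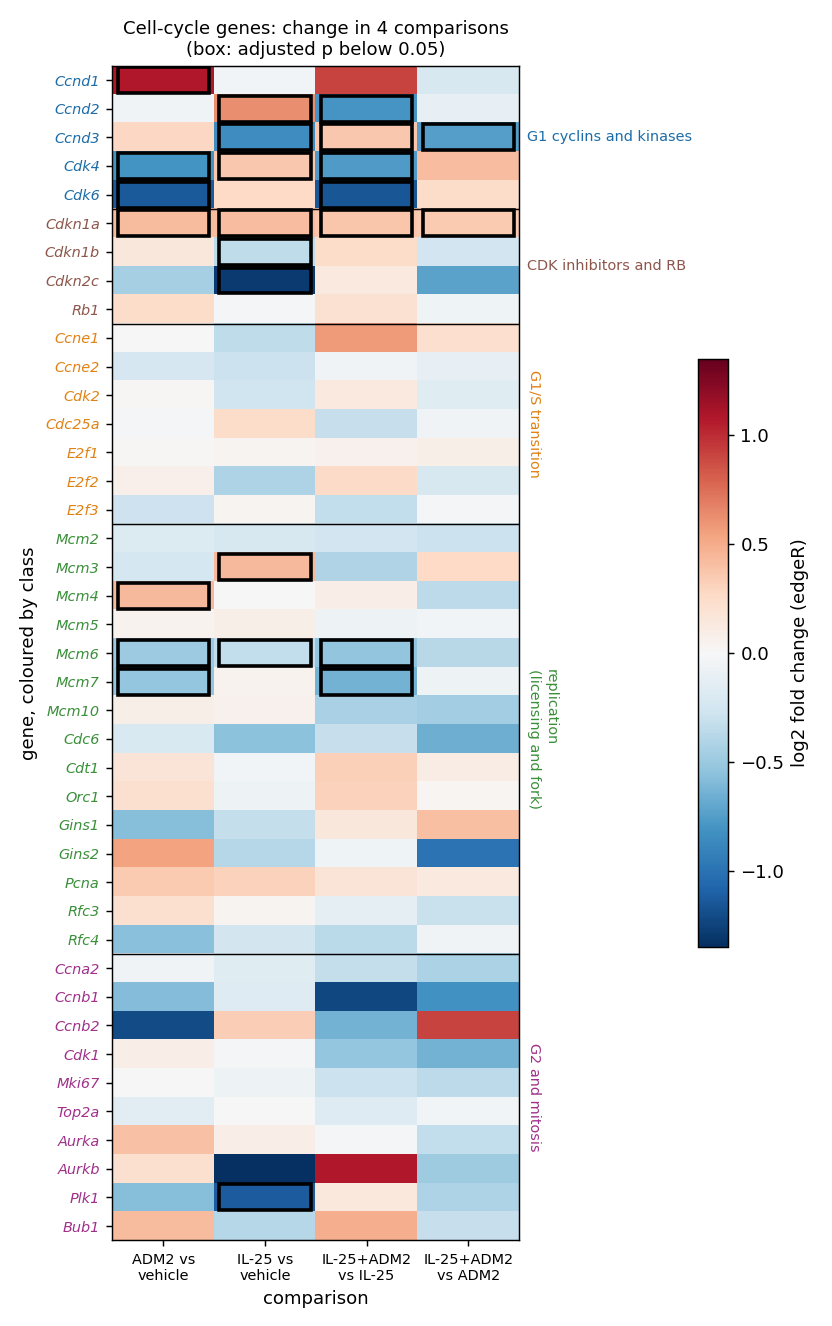
Log2 fold changes from edgeR (colour, red higher and blue lower) of the 41 genes (rows, grouped and coloured by class) in 4 comparisons (columns). Black boxes mark an adjusted p below 0.05: they lie mostly among the G1 cyclins, kinases and CDK inhibitors and the MCM subunits, with none in the G1/S class and 1, Plk1, in the mitosis class.

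ADM2 lowered the messages of both G1 kinases, with IL-25 and without it. Cdk4 measured 113, 136 and 107 CPM in the vehicle libraries, 75.5, 61.4 and 66.6 CPM with ADM2, 162, 139 and 159 CPM with IL-25 and 82.5 and 98.4 CPM with both agents. Every library with ADM2 lay below every library without it. Cdk4 encodes a catalytic partner of the D cyclins; relative to vehicle it fell 1.75-fold with ADM2 (log2 fold change -0.81 ± 0.12, edgeR adjusted p = 0.000245), and relative to IL-25 it fell 1.69-fold (-0.76 ± 0.14, adjusted p = 0.0014). Cdk6 measured 49.3, 36.5 and 49.3 CPM in the vehicle libraries, 19.3, 21.6 and 20.6 CPM with ADM2, 51.0, 60.1 and 51.5 CPM with IL-25 and 27.6 and 21.1 CPM with both agents. The 5 libraries with ADM2 again lay below the 6 without it. Cdk6, the other catalytic partner, fell 2.19-fold with ADM2 (-1.13 ± 0.14, edgeR adjusted p = 6.04e-05) and 2.23-fold when ADM2 was added to IL-25 (-1.15 ± 0.16, adjusted p = 0.000224). The difference between these effects, with IL-25 minus without, was 0.049 ± 0.18 for Cdk4 (95% interval -0.30 to 0.40) and -0.021 ± 0.21 for Cdk6 (-0.44 to 0.40). The calls for both genes in both comparisons held under every alternative. The summed epithelial markers were lower in the same 5 libraries.

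IL-25 alone moved the kinases the other way or left them within the error. Cdk4 was higher with IL-25 than in vehicle in all 3 libraries (0.37 ± 0.12, edgeR adjusted p = 0.0375). This call was lost without vehicle replicate 1 (adjusted p = 0.176) or 3 (0.216), ADM2 replicate 3 (0.0767), or IL-25 replicate 1 (0.0979) or 3 (0.112), with upper-quartile scaling (0.089) and with only the groups compared (0.0684). Cdk6 differed from vehicle by 0.27 ± 0.14 (adjusted p = 0.2, edgeR; 95% interval -0.0079 to 0.54). With ADM2 in both groups, IL-25 gave differences of 0.41 ± 0.13 for Cdk4 and 0.25 ± 0.16 for Cdk6, neither of them called (adjusted p = 0.0607 and 0.413, edgeR). Cdk4 lies at chr10:127063535-127067288 and overlaps Tspan31, and Cdk6 at chr5:3341004-3531008 (mm10) overlaps a pair of predicted long noncoding RNAs. The use of strand in counting is not given in the sources used here, and reads of overlapping genes may be included.

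The promoter windows of these kinases are shown because the genes fell together. RefSeq promoters (250 bases before to 50 after the start, GRCm38.p6) matched 32 of the 41 genes. Those without one were Ccnd1, Ccnd2, Rb1, Ccne2, Mcm4, Gins1, Gins2, Ccna2 and Aurkb. The windows lie at chr10:127063285-127063584, plus strand, and chr5:3343643-3343942, plus strand. The Cdk4 window spans the first base of its gene, at 127063535. The Cdk6 window lies inside the annotated gene, downstream of its first base at 3341004. Capitals mark the E-box CACGTG, searched on both strands, which is its own reverse complement.
Cdk4: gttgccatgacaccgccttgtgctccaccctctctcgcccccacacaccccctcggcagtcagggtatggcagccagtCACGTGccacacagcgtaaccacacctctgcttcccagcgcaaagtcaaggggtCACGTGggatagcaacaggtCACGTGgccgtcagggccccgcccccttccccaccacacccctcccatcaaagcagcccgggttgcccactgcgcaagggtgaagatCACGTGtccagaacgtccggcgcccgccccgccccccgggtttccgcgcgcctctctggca
Cdk6: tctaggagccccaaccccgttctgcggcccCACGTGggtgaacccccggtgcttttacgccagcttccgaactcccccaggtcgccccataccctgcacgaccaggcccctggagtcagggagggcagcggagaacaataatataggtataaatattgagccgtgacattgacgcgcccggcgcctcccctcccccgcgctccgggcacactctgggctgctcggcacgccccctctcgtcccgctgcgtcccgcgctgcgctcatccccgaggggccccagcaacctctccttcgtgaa
Cdk4 held 4 copies and Cdk6 held 1. The letters occurred in 7.15% of 32851 windows of that length. Over all windows of a gene, they occurred in 8.09% of 27025 genes. Among the 32 members with a window, 4 held them (Cdk4, Cdk6, Cdkn2c and E2f3). The cyclic AMP response element TGACGTCA, which is also its own reverse complement, was in 1.79% of all windows. It was in 2.03% of the 27025 genes and in 1 of the 32, Mcm5.

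The D cyclins, regulatory subunits of CDK4 and CDK6, each followed a different pattern. Ccnd2 measured 460.3, 417 and 509 CPM in the vehicle libraries, 409.7, 505 and 424 CPM with ADM2, 748, 719.7 and 679.7 CPM with IL-25 and 431 and 396 CPM with both agents. The 3 IL-25 libraries stood above all 8 others, and the other groups overlapped. Ccnd2, per length the most abundant D cyclin in vehicle at 68.8 CPM per kb, rose 1.55-fold with IL-25 (0.63 ± 0.10, edgeR adjusted p = 0.000318). With ADM2 added it fell 1.73-fold (-0.79 ± 0.12, adjusted p = 0.000268). ADM2 alone gave -0.05 ± 0.10 against vehicle (adjusted p = 0.838, edgeR; 95% interval -0.25 to 0.15), and IL-25 plus ADM2 gave -0.11 ± 0.11 against ADM2 alone. Both calls held under every alternative.

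Ccnd2 had the smallest p of the 41 for the difference of the ADM2 effect with and without IL-25. The difference was -0.74 ± 0.15 (unadjusted p = 0.00021, edgeR adjusted p = 0.199), so it was not called. By edgeR, 0 of the 41 members were called in this comparison, with 2 at an unadjusted p below 0.05 (Ccnd2 and Mcm4), where 0.0333% of all genes were called. DESeq2 called 1 member, Ccnd2 (adjusted p = 0.00548), as did edgeR with no filter on low counts (0.0245), and limma voom called 0.

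Cyclin D3 moved opposite to cyclin D2 with IL-25 alone and when ADM2 was added to IL-25. Ccnd3 measured 98.4, 94.1 and 84.4 CPM in the vehicle libraries, 107, 118 and 109.9 CPM with ADM2, 51.3, 57.0 and 47.1 CPM with IL-25 and 64.2 and 69.4 CPM with both agents. The groups did not overlap, with ADM2 highest, then vehicle, then both agents and then IL-25. Ccnd3 fell 1.78-fold with IL-25 (-0.83 ± 0.10, edgeR adjusted p = 3.5e-05), and IL-25 plus ADM2 was 1.67-fold below ADM2 alone (-0.74 ± 0.12, adjusted p = 0.000708). Both calls held under every alternative. ADM2 added to IL-25 raised it 1.29-fold (0.37 ± 0.11, edgeR adjusted p = 0.0424). That call was lost without ADM2 replicate 1 (adjusted p = 0.0535), IL-25 replicate 1 (0.0688) or 3 (0.146), or IL-25 plus ADM2 replicate 2 (0.0976) or 3 (0.252), with limma voom (0.0526) and with only the groups compared (0.103). ADM2 alone gave 0.27 ± 0.10 (adjusted p = 0.0895, edgeR), which was not called. Ccnd3 overlaps Bysl and a long noncoding RNA. The summed endothelial markers were higher in the same 5 libraries with IL-25, and their part was not tested.

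Cyclin D1 was scarce and rose with ADM2. Ccnd1 measured 5.00, 3.84 and 5.16 CPM in the vehicle libraries, 9.61, 9.44 and 10.6 CPM with ADM2, 2.71, 4.80 and 6.05 CPM with IL-25 and 8.90 and 8.19 CPM with both agents. All 5 libraries with ADM2 exceeded all 6 without it, as did the summed myeloid markers, whose part was not tested. The raw counts were 66 to 386 per library, and the level in vehicle was 1.25 CPM per kb. Ccnd1 rose 2.12-fold with ADM2 (1.08 ± 0.27, edgeR adjusted p = 0.0124), a call that was lost without vehicle replicate 2 (adjusted p = 0.0582), or ADM2 replicate 3 (0.0532). With IL-25 present ADM2 gave 0.91 ± 0.30 (edgeR adjusted p = 0.0519), just outside the threshold. It passed with DESeq2 (0.0174), limma voom (0.0394), median-ratio scaling (0.0472), upper-quartile scaling (0.0344) and a minimum count of 30 (0.0448), and without vehicle replicate 2 (0.0433) or IL-25 replicate 3 (0.0208). IL-25 alone gave -0.041 ± 0.27 (95% interval -0.57 to 0.49).

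Cdkn1a, which encodes p21, rose in all 4 comparisons between groups. Cdkn1a measured 423, 407 and 401 CPM in the vehicle libraries, 574, 526 and 558 CPM with ADM2, 503, 583 and 555 CPM with IL-25 and 692 and 723 CPM with both agents. Vehicle was lowest and the libraries with both agents highest, and the ADM2 and IL-25 libraries between them overlapped each other. ADM2 raised Cdkn1a 1.35-fold (0.43 ± 0.082, edgeR adjusted p = 0.00187), and IL-25 raised it 1.33-fold (0.42 ± 0.082, adjusted p = 0.00167). Those 2 calls held under every alternative. Both agents gave a further 1.29-fold over IL-25 (0.37 ± 0.09, edgeR adjusted p = 0.0114) and 1.28-fold over ADM2 (0.36 ± 0.09, adjusted p = 0.0186). The call over IL-25 was lost without IL-25 plus ADM2 replicate 2 (adjusted p = 0.0549) or 3 (0.111). The call over ADM2 was lost without ADM2 replicate 2 (adjusted p = 0.0694), or IL-25 plus ADM2 replicate 2 (0.0759) or 3 (0.173). The difference of the ADM2 effect with and without IL-25 was -0.057 ± 0.12 (95% interval -0.30 to 0.18). Per length Cdkn1a was the highest of the 41 in vehicle, at 151 CPM per kb, above Pcna at 77.9 and Ccnd2 at 68.8 CPM per kb.

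The promoter of Cdkn1a is shown because it was the member called in all 4 comparisons and the 1 member of 32 with a p53 half-site by the usual degenerate consensus, searched on both strands. The window lies at chr17:29090729-29091028, plus strand (GRCm38.p6, RefSeq), around the upstream of its annotated starts, and capitals mark the half-sites.
Cdkn1a: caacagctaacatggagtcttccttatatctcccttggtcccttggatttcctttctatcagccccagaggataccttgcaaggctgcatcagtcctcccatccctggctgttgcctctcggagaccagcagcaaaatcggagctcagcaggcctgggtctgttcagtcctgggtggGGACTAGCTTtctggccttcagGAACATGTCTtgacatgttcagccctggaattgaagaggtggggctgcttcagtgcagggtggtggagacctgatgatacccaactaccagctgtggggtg
The window held 2 half-sites, and such letters occurred in 8.36% of all windows. Over all windows of a gene, they occurred in 9.55% of 27025 genes. The window of the downstream start held none.

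Of the other inhibitors, Cdkn1b and Cdkn2c fell with IL-25. Cdkn1b measured 91.0, 101 and 107 CPM in the vehicle libraries, 118, 104 and 111 CPM with ADM2, 73.3, 78.8 and 83.1 CPM with IL-25 and 88.0 and 98.1 CPM with both agents. The IL-25 libraries lay below the vehicle and ADM2 libraries. Cdkn1b, which encodes p27, fell 1.27-fold (-0.34 ± 0.099, edgeR adjusted p = 0.02), a call that was lost without vehicle replicate 3 (adjusted p = 0.0641), or IL-25 replicate 1 (0.0591). Cdkn2c measured 3.44, 2.65 and 2.26 CPM in the vehicle libraries, 1.77, 1.58 and 2.78 CPM with ADM2, 1.31, 1.29 and 0.803 CPM with IL-25 and 1.17 and 1.31 CPM with both agents. Its counts were 26 to 106 per library, and the IL-25 and vehicle libraries did not overlap. Cdkn2c, which encodes the CDK4 and CDK6 inhibitor p18, fell 2.45-fold (-1.29 ± 0.41, edgeR adjusted p = 0.0322). That call was lost without vehicle replicate 1 (adjusted p = 0.12) or 2 (0.0536), or IL-25 replicate 2 (0.0531) or 3 (0.105), and with no filter on low counts (0.0722). Rb1, the substrate of the G1 kinases, was called in 0 of the 4 comparisons by edgeR and had values of 0.25 with ADM2 (95% interval 0.056 to 0.45) and -0.013 with IL-25 (-0.21 to 0.18). With ADM2 alone, Cdkn1b gave 0.16 ± 0.099 and Cdkn2c -0.44 ± 0.40, neither called. The summed T cell markers were also lower in the IL-25 libraries than in vehicle, and their part was not tested.

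**Figure D2:**
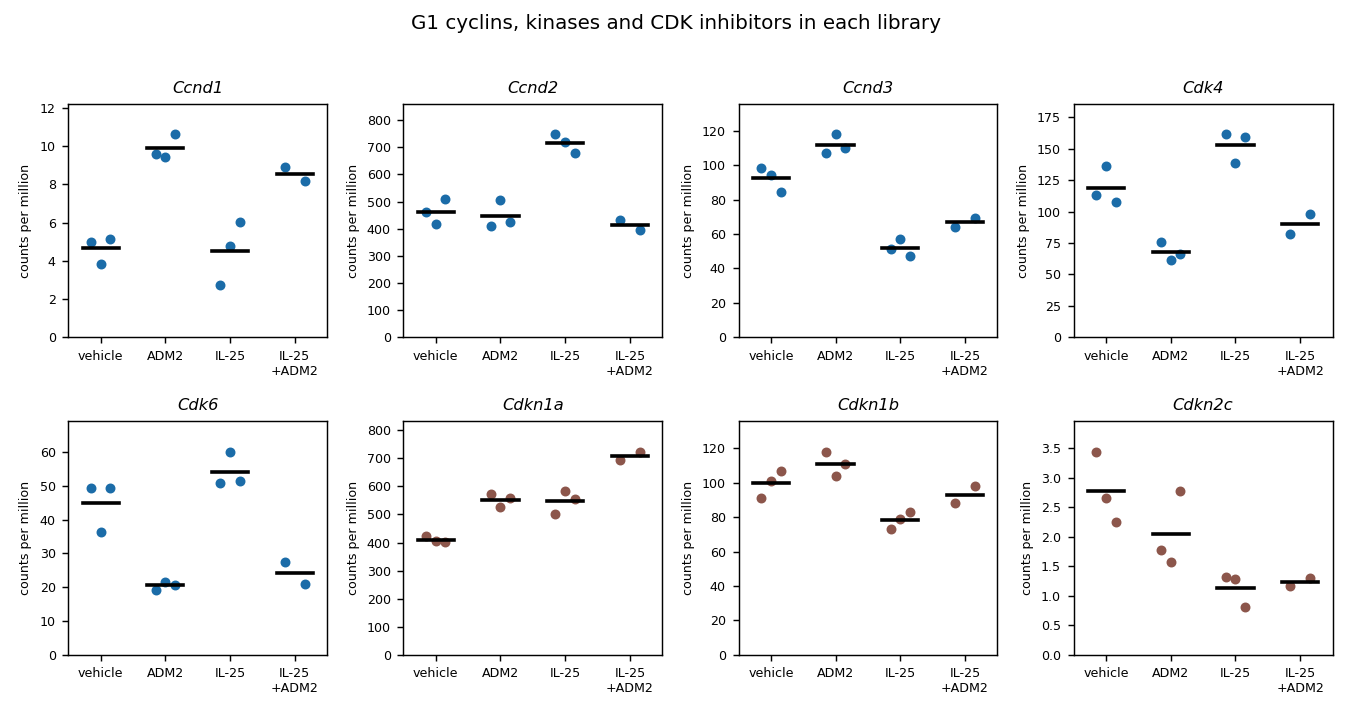
CPM in each library (points, left to right by replicate number) with group means (bars) for the D cyclins, Cdk4 and Cdk6 (blue) and 3 CDK inhibitors (brown); groups on the horizontal axis have 3 libraries, or 2 for both agents. Cdk4 and Cdk6 are lower in the 5 libraries with ADM2, Ccnd2 stands out with IL-25 alone at 679.7 to 748 CPM, and Cdkn1a is highest with both agents.

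None of the 7 genes of the G1/S transition was called in any comparison. Over all genes 14.8%, 23.3%, 14.6% and 10.8% were called in the comparisons between groups, and 0.0333% in the difference. Few calls among 7 genes would be due at these shares. By edgeR 0 of 7 passed in each of the 5, and at an unadjusted p below 0.05 the counts were 0 with ADM2, 1 with IL-25, 1 for ADM2 added to IL-25, 0 for both against ADM2 and 0 for the difference. DESeq2 and limma voom called 0 as well. Cdk2, the kinase that works with cyclins E and A, was measured most precisely. Cdk2 measured 38.4, 35.1 and 34.4 CPM in the vehicle libraries, 37.3, 34.1 and 37.9 CPM with ADM2, 32.5, 28.0 and 28.8 CPM with IL-25 and 33.1 and 32.2 CPM with both agents. The IL-25 libraries lay below vehicle, with -0.27 ± 0.11 (adjusted p = 0.0855, edgeR). It passed with upper-quartile scaling (0.0374) and without IL-25 replicate 1 (0.0475). Its value with ADM2 was 0.019 ± 0.11 (95% interval -0.19 to 0.23).

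The phosphatase Cdc25a, which activates CDK2, ranged from 19.9 to 32.8 CPM over the 11 libraries, and the vehicle and IL-25 libraries overlapped (0.25 ± 0.15, edgeR adjusted p = 0.265). E2f3, a transcription factor that activates S-phase genes, averaged 34.7 ± 3.44 CPM in vehicle and 28.7 ± 2.78 CPM with ADM2 (SD, n = 3), with -0.28 ± 0.13 (edgeR adjusted p = 0.193). With IL-25 it averaged 35.7 ± 3.48 CPM, and with both 28.4 ± 4.29 CPM (SD, n = 2; -0.33 ± 0.15, edgeR adjusted p = 0.157). These E2f3 groups did not overlap in either comparison, but neither was called. E2f1 and E2f2, the other activating E2F genes listed, had group means of 5.04 to 5.39 and 2.89 to 4.03 CPM. Ccne1 and Ccne2, the E cyclins, were near the floor of measurement at group means of 1.35 to 2.02 and 1.10 to 1.40 CPM, with counts from 19 per library. Their values with ADM2 had 95% intervals of -0.97 to 0.96 and -1.38 to 0.92, and a value as low as that of Cdk4 (-0.81) lies inside both.

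The MCM2 to MCM7 subunits, which act as 1 hexamer, did not move together. Under ADM2, Mcm6 and Mcm7 fell, Mcm4 rose, and Mcm2, Mcm3 and Mcm5 were not called. Mcm6 measured 157, 167 and 150.0 CPM in the vehicle libraries, 109, 109.8 and 119 CPM with ADM2, 142, 126 and 108 CPM with IL-25 and 78.5 and 95.1 CPM with both agents. Vehicle libraries were highest and those with both agents lowest, with the ADM2 and IL-25 libraries between. Mcm6 fell 1.40-fold with ADM2 (-0.49 ± 0.11, edgeR adjusted p = 0.00762) and 1.44-fold when ADM2 was added to IL-25 (-0.53 ± 0.13, adjusted p = 0.0107). The first call held under every alternative, and the second was lost without IL-25 plus ADM2 replicate 2 (adjusted p = 0.15) and with only the groups compared (0.0594). IL-25 lowered it 1.26-fold (-0.33 ± 0.11, edgeR adjusted p = 0.0436), a call that was lost without vehicle replicate 1 (adjusted p = 0.0664) or 2 (0.0792), ADM2 replicate 1 (0.0552) or 2 (0.0535), or IL-25 replicate 2 (0.0807) or 3 (0.192).

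Mcm7 followed ADM2. Mcm7 measured 55.4, 58.8 and 56.2 CPM in the vehicle libraries, 38.3, 39.7 and 40.7 CPM with ADM2, 63.5, 47.8 and 65.0 CPM with IL-25 and 37.3 and 38.2 CPM with both agents. The 5 libraries with ADM2 lay at 37.3 to 40.7 CPM and the others at 47.8 CPM or above. The fall was 1.43-fold without IL-25 (-0.52 ± 0.12, edgeR adjusted p = 0.00634) and 1.56-fold with it (-0.64 ± 0.13, adjusted p = 0.00428). Both calls held under every alternative, and IL-25 alone gave 0.049 ± 0.12 (95% interval -0.18 to 0.28). Mcm7 overlaps Ap4m1 and 3 microRNA genes, Mir25, Mir93 and Mir106b.

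Mcm4 and Mcm3 rose in 1 comparison each. Mcm4 measured 47.5, 51.7 and 51.3 CPM in the vehicle libraries, 65.6, 71.9 and 66.9 CPM with ADM2, 47.2, 56.3 and 46.9 CPM with IL-25 and 55.9 and 50.8 CPM with both agents. The ADM2 libraries stood above the rest. Mcm4 rose 1.36-fold with ADM2 (0.44 ± 0.10, edgeR adjusted p = 0.00902), a call that was lost without vehicle replicate 1 (adjusted p = 0.071). With IL-25 present, ADM2 gave 0.09 ± 0.12, and the difference between the ADM2 effects was -0.35 ± 0.16 (unadjusted p = 0.0419, edgeR adjusted p = 0.721). Mcm3 measured 79.5, 91.0 and 81.5 CPM in the vehicle libraries, 84.6, 58.1 and 70.4 CPM with ADM2, 106, 117 and 118 CPM with IL-25 and 84.8 and 86.7 CPM with both agents. The IL-25 libraries were the highest. Mcm3 rose 1.35-fold with IL-25 (0.44 ± 0.12, edgeR adjusted p = 0.0172), a call lost without vehicle replicate 1 (adjusted p = 0.0989) or 3 (0.0891), or IL-25 replicate 3 (0.0618). ADM2 added to IL-25 gave -0.41 ± 0.14 (adjusted p = 0.0635, edgeR), not called, although DESeq2 (0.0303) and edgeR with no filter (0.0343) called it, as did edgeR without ADM2 replicate 1 (0.0352) or 2 (0.0317).

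Mcm2 and Mcm5 were called in 0 of the 5 comparisons. Mcm5 had 52.2 to 64.1 CPM over all 11 libraries, and its 95% intervals were -0.15 to 0.25 with ADM2 and -0.12 to 0.27 with IL-25. Mcm2 averaged 62.5 ± 4.52 CPM in vehicle, 55.0 ± 3.31 CPM with ADM2 and 53.6 ± 3.61 CPM with IL-25 (SD, n = 3), and 44.8 ± 3.26 CPM with both (SD, n = 2). Its values of -0.19 with ADM2 and -0.26 for ADM2 added to IL-25 were not called (edgeR adjusted p = 0.283 and 0.166).

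Promoters of Mcm6 and Mcm7 are shown as the subunits that fell under ADM2 with and without IL-25. The windows lie at chr1:128359656-128359955, minus strand, and chr5:138171834-138172133, minus strand (RefSeq, GRCm38.p6). Capitals mark the forms of the E2F site (TTTCCCGC, TTTGGCGC, TTTCGCGC or TTTGCCGC) on either strand; the first pair in Mcm6 overlap.
Mcm6: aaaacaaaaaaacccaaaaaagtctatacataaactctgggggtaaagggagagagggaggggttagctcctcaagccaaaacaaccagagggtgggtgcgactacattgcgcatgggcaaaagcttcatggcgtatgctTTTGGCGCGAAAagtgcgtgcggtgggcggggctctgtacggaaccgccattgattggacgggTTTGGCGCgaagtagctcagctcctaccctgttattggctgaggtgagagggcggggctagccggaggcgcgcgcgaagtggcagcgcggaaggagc
Mcm7: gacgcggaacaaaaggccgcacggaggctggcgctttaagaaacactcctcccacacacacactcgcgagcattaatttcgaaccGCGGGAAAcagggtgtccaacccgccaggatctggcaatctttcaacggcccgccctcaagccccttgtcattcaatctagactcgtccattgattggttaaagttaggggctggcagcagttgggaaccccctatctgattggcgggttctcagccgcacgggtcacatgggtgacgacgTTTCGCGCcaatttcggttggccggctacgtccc
Mcm6 held 3 matches and Mcm7 held 2. The Mcm7 window shown is the one with more matches, and its other window (chr5:138171217-138171516) held none. A match stood in 2.26% of all 32851 windows and, over all windows of a gene, in 2.6% of 27025 genes. It stood in 8 of the 12 replication genes with a window (Mcm3, Mcm5, Mcm6, Mcm7, Cdc6, Cdt1, Orc1 and Rfc3) and in 4 of 6 G1/S genes. Mcm3 rose with IL-25 and Mcm5 was not called in any comparison, and both windows held 2 matches.

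The remaining 9 replication genes were not called in any comparison. Pcna, the sliding clamp of the polymerases, was the most abundant of them. Pcna measured 101, 139 and 115 CPM in the vehicle libraries, 155, 154 and 143 CPM with ADM2, 175, 131 and 133 CPM with IL-25 and 149 and 182 CPM with both agents. The ADM2 libraries lay above vehicle (0.35 ± 0.14, edgeR adjusted p = 0.108), and the IL-25 libraries overlapped vehicle (0.31 ± 0.14, adjusted p = 0.124). Both passed without vehicle replicate 2, the highest of its group (0.0451 and 0.0476). Cdt1, the MCM loading factor, ranged over 31.1 to 48.6 CPM, with 0.18 ± 0.13 for ADM2 and 0.32 ± 0.14 for ADM2 added to IL-25. The clamp loader subunit Rfc3 measured 11.2 to 17.2 CPM. Rfc4, another subunit, averaged 8.30 ± 1.39 CPM in vehicle and 5.61 ± 0.305 CPM with ADM2 (SD, n = 3), without overlap (-0.56 ± 0.25, edgeR adjusted p = 0.165), and shares its locus with Eif4a2. Cdc6, the other loading factor, averaged 5.16 ± 0.646 CPM in vehicle and 3.52 ± 0.619 CPM with IL-25 (-0.55 ± 0.28, edgeR adjusted p = 0.179). Mcm10, Orc1, Gins1 and Gins2, which act at origins and at the fork, had means over all libraries of 1.03 to 3.20 CPM, and their values with ADM2 spanned -0.58 to 0.55 with SEs of 0.35 to 0.60.

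**Figure D3:**
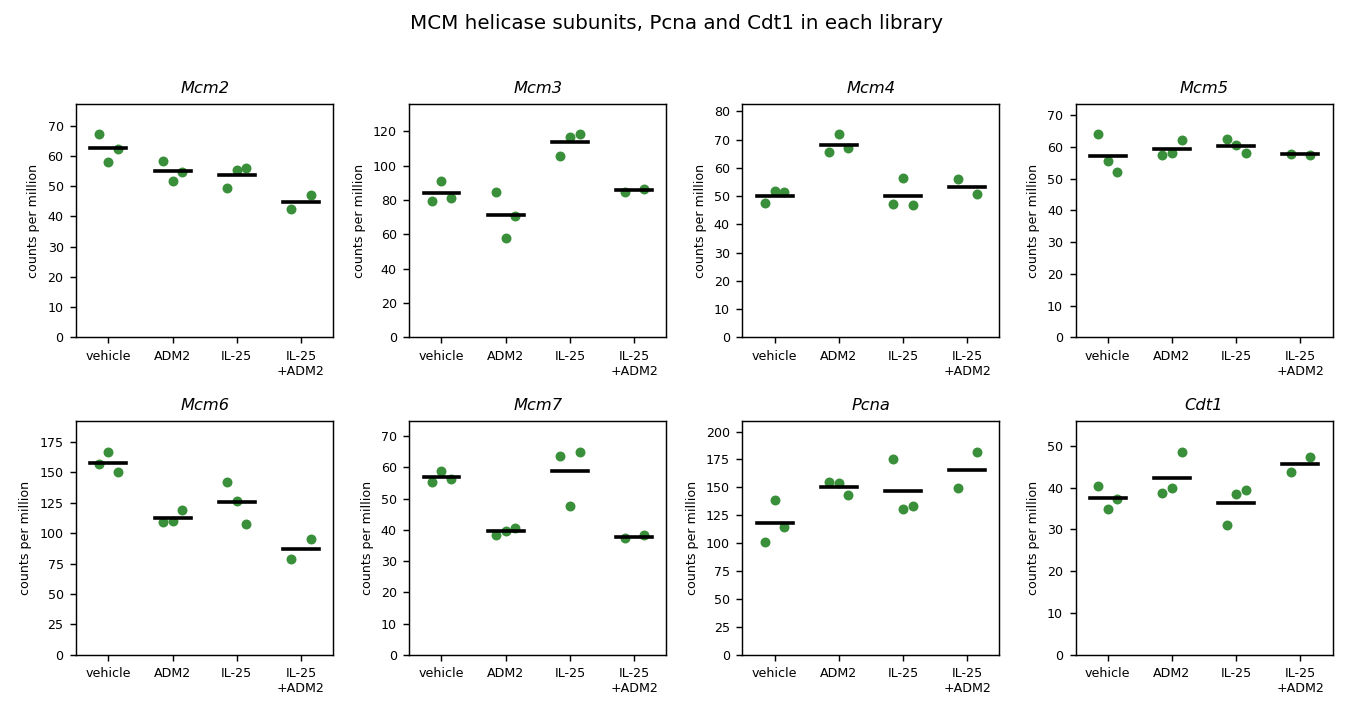
CPM in each library (points, left to right by replicate number) with group means (bars) for the 6 MCM helicase subunits, Pcna and Cdt1. Mcm7 is lower in the 5 libraries with ADM2, Mcm6 is highest in vehicle and lowest with both agents, Mcm4 is higher with ADM2 alone at 65.6 to 71.9 CPM, Mcm3 is higher with IL-25 alone, and Mcm5 is level at 52.2 to 64.1.

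Mitotic messages were scarce, and 1 of the 10 genes was called in 1 comparison. The shares over all genes were 14.8%, 23.3%, 14.6% and 10.8% in the comparisons between groups. Mki67, a nuclear protein used as a proliferation marker, and Top2a, a DNA topoisomerase, were the most abundant. Mki67 measured 42.6, 31.3 and 38.3 CPM in the vehicle libraries, 32.8, 43.3 and 36.3 CPM with ADM2, 39.9, 35.7 and 31.6 CPM with IL-25 and 32.9 and 25.7 CPM with both agents. All groups overlapped in all 4 comparisons. Its 95% intervals were -0.29 to 0.30 with ADM2 and -0.36 to 0.23 with IL-25, and -0.62 to 0.05 for ADM2 added to IL-25. Top2a measured 30.4, 32.6 and 35.8 CPM in the vehicle libraries, 29.6, 26.4 and 33.3 CPM with ADM2, 39.1, 33.5 and 26.1 CPM with IL-25 and 29.1 and 29.0 CPM with both agents. The groups overlapped here too. The 95% intervals of Top2a were -0.43 to 0.14 with ADM2, -0.29 to 0.28 with IL-25 and -0.50 to 0.14 for ADM2 added to IL-25.

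The other 8 mitotic genes had means below 10 CPM. Plk1 measured 5.23, 6.27 and 6.49 CPM in the vehicle libraries, 3.18, 4.07 and 4.87 CPM with ADM2, 3.04, 2.30 and 2.93 CPM with IL-25 and 4.73 and 1.34 CPM with both agents. The IL-25 libraries lay below vehicle, and the libraries with both agents differed widely. Plk1, a kinase of mitotic entry, fell 2.17-fold with IL-25 (-1.12 ± 0.38, edgeR adjusted p = 0.0475). The call was lost without any 1 of the vehicle, ADM2 or IL-25 libraries: without vehicle replicate 1 (adjusted p = 0.0673), 2 (0.0859) or 3 (0.113), ADM2 replicate 1 (0.053), 2 (0.0594) or 3 (0.0512), or IL-25 replicate 1 (0.0788), 2 (0.127) or 3 (0.0895). Aurkb measured 2.96, 2.98 and 3.95 CPM in the vehicle libraries, 3.12, 4.07 and 4.27 CPM with ADM2, 1.31, 2.20 and 0.371 CPM with IL-25 and 2.93 and 2.55 CPM with both agents. Aurkb, a kinase of chromosome segregation, had counts of 12 to 155 per library, and its IL-25 libraries lay below all others. With IL-25 it gave -1.35 ± 0.48 (edgeR adjusted p = 0.0546), just outside the threshold. It passed with DESeq2 (0.0174), limma voom (0.0241), upper-quartile scaling (0.0438) and no filter (0.0399), and without IL-25 replicate 2 (0.0114).

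Ccnb2 measured 3.05, 2.52 and 3.72 CPM in the vehicle libraries, 1.14, 0.880 and 1.98 CPM with ADM2, 2.55, 3.28 and 5.87 CPM with IL-25 and 2.66 and 2.37 CPM with both agents. The ADM2 libraries lay below all others. Ccnb2, a B cyclin, gave -1.21 ± 0.41 with ADM2 (edgeR adjusted p = 0.0628), which passed with DESeq2 (0.0237) and without ADM2 replicate 3 (0.0288) or IL-25 replicate 1 (0.0482). Ccnb1, the other B cyclin, measured 3.48, 4.84 and 1.30 CPM in vehicle, with values of -0.59 ± 0.44 for ADM2 and -0.18 ± 0.44 for IL-25. Cdk1, their kinase, averaged 4.91 ± 0.0816 CPM in vehicle, 5.21 ± 0.445 CPM with ADM2 and 4.85 ± 2.14 CPM with IL-25 (SD, n = 3), and 3.36 ± 0.0788 CPM with both (SD, n = 2). Neither gene was called in any comparison. Ccna2, the S and G2 cyclin, Aurka, a centrosome kinase, and Bub1, a spindle checkpoint kinase, had 95% intervals with ADM2 of -0.69 to 0.59, -0.27 to 1.06 and -0.47 to 1.31.

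The promoter of Cdk1 is shown for the mitotic genes, since it held both elements searched in that class. It lies at chr10:69352863-69353162, minus strand (RefSeq, GRCm38.p6). Capitals mark an E2F site, as above, and the cell cycle genes homology region (CHR) TTTGAA or TTTAAA on either strand.
Cdk1: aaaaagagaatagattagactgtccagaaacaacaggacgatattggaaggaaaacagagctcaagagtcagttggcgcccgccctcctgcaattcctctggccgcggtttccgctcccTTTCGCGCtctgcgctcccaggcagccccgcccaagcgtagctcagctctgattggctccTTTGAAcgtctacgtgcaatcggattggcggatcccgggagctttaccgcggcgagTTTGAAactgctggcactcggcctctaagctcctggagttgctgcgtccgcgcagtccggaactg
Cdk1 held 1 E2F match and 2 CHR matches. CHR letters stood in 7 of the 8 mitotic genes with a window and in 13 of all 32. They stood in 27.6% of all windows and, over all windows of a gene, in 30.6% of 27025 genes. E2F letters stood in 1 of the 8 mitotic genes and in 0 of the 3 G1 cyclin and kinase genes with a window.

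Set side by side, the classes differed in how many members were called and in how precisely they were measured. Of the 5 G1 cyclins and kinases, 3 were called with ADM2, 3 with IL-25, 4 for ADM2 added to IL-25 and 1 for both against ADM2. Of the 4 inhibitors and RB the counts were 1, 3, 1 and 1. Of the 15 replication genes they were 3, 2, 2 and 0, of the 7 G1/S genes 0 in each, and of the 10 mitotic genes 0, 1, 0 and 0. Over all genes tested, 14.8%, 23.3%, 14.6% and 10.8% were called in either direction in these comparisons. The median SE with ADM2 was 0.12 for the G1 genes, 0.14 for replication, 0.32 for G1/S and 0.36 for mitosis, against 0.19 over all genes tested. The median of the class means was 81.9 CPM for G1, 40.0 for replication, 5.16 for G1/S and 4.36 for mitosis. Counts of calls between classes are therefore read with these depths beside them, and whether the classes differ was not tested.

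Median log2 fold changes of the classes are given beside the median over all genes, and they leave out that members of a class moved in opposite directions. With ADM2 the median was -0.05 for G1 genes (range -1.13 to 1.08), 0.20 for inhibitors and RB, -0.0035 for G1/S, 0.049 for replication and -0.022 for mitosis, against -0.0058 over all genes. With IL-25 the medians were 0.27, -0.18, -0.27, -0.042 and -0.11 in that order, against 0.00046. For ADM2 added to IL-25 they were -0.76, 0.23, 0.053, -0.12 and -0.23, against -0.011. For both against ADM2 they were -0.11, -0.16, -0.051, -0.068 and -0.38, against -0.013. The sign of the G1, replication and mitosis medians with ADM2, and of both G1/S medians that involve the combined group, turned when single libraries were left out.

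**Figure D4:**
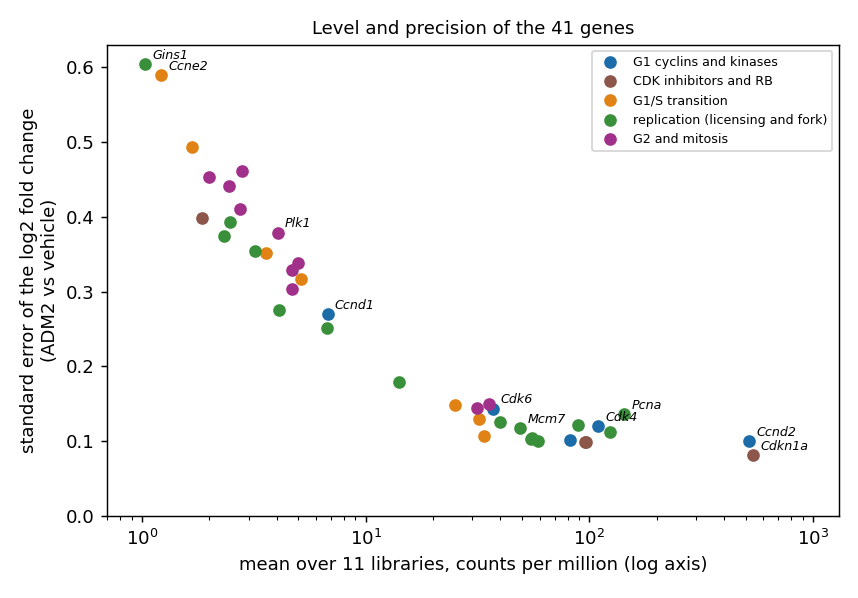
Standard error of the log2 fold change for ADM2 against vehicle (vertical axis) against the mean level over 11 libraries in CPM (horizontal log axis), 1 point per gene, coloured by class. Genes under 10 CPM, among them 8 of 10 mitosis genes and Ccnd1, have standard errors of 0.25 to 0.60, and genes above 20 have 0.15 or less.

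Other genes of the same steps were read from 5 further lists, whose genes all passed the filter. The lists were chosen with earlier results of these data known, and whether they differ from all genes was not tested. Among 25 other G1/S regulators, calls were 2 higher and 2 lower with ADM2, 4 higher and 6 lower with IL-25, 2 higher and 4 lower for ADM2 added to IL-25 and 2 higher and 5 lower for both against ADM2. In that order 8%, 16%, 8% and 8% of the list were called higher, against 7.39%, 13%, 6.53% and 6.17% of all genes, and 8%, 24%, 16% and 20% lower, against 7.43%, 10.4%, 8.1% and 4.68%. The shares called higher lay near the background in every comparison, as did the share lower with ADM2. The other shares called lower were above it. The median log2 fold changes of the list were -0.051, -0.13, -0.089 and -0.21. Rbl2, a relative of RB that represses E2F targets, averaged 84.0 ± 6.86 CPM in vehicle and 35.1 ± 1.62 CPM with IL-25 (SD, n = 3), and fell (-1.26 ± 0.11, adjusted p = 1.63e-06, edgeR). E2f5, a repressive E2F, rose with IL-25 from 16.9 ± 2.78 to 47.4 ± 6.21 CPM (1.48 ± 0.15, adjusted p = 5.16e-06, edgeR). E2f6, another repressive member, fell with ADM2 (-0.57 ± 0.11, adjusted p = 0.00149, edgeR) and when ADM2 was added to IL-25 (-0.72 ± 0.12, adjusted p = 0.000861). The E2F partner Tfdp1 fell in the same comparisons (-0.51 ± 0.13, adjusted p = 0.0133, edgeR; -0.64 ± 0.14, adjusted p = 0.00737), and the second call was lost without IL-25 plus ADM2 replicate 2 (adjusted p = 0.125). Myb, a transcription factor of proliferating blood cells, rose from 2.95 ± 0.801 to 6.85 ± 1.81 CPM with ADM2 (1.21 ± 0.29, adjusted p = 0.00873, edgeR) and from 3.62 ± 0.503 to 14.8 ± 4.24 CPM when ADM2 joined IL-25 (2.03 ± 0.31, adjusted p = 0.000416).

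Among 41 other replication genes, calls were 3 higher and 4 lower with ADM2, 3 higher and 4 lower with IL-25, 1 higher and 1 lower for ADM2 added to IL-25 and 1 higher and 3 lower for both against ADM2, with medians of -0.037, -0.20, 0.0059 and -0.18. Tyms, which makes thymidylate, fell from 17.7 ± 2.61 to 8.38 ± 2.46 CPM with ADM2 (-1.08 ± 0.22, adjusted p = 0.00282, edgeR). Slbp, which binds histone messages, rose from 73.7 ± 11.8 to 116 ± 9.90 CPM (0.65 ± 0.12, adjusted p = 0.00117, edgeR). The large clamp loader subunit Rfc1 fell with IL-25 (-0.63 ± 0.11, adjusted p = 0.000592, edgeR), as did Rpa1, a single-strand binding subunit (-0.55 ± 0.10, adjusted p = 0.000982), while the origin subunit Orc2 rose (0.54 ± 0.13, adjusted p = 0.00542). Called higher, in the order above, were 7.32%, 7.32%, 2.44% and 2.44%, against 7.39%, 13%, 6.53% and 6.17% of all genes. Called lower were 9.76%, 9.76%, 2.44% and 7.32%, against 7.43%, 10.4%, 8.1% and 4.68%. The shares lower with ADM2 (4 of 41) and for both against ADM2 (3 of 41) were only slightly above the background. The other shares of this list were near or below it.

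Among 36 other G2 and mitosis genes, calls were 4 higher and 0 lower with ADM2, 1 higher and 2 lower with IL-25, 3 higher and 0 lower for ADM2 added to IL-25 and 2 higher and 2 lower for both against ADM2, with medians of -0.073, -0.20, -0.11 and -0.20. In that order 11.1%, 2.78%, 8.33% and 5.56% of the list were called higher, against 7.39%, 13%, 6.53% and 6.17% of all genes, and 0%, 5.56%, 0% and 5.56% lower, against 7.43%, 10.4%, 8.1% and 4.68%. With IL-25 both shares were below the background. Kif23, a kinesin of the midzone of dividing cells, had the smallest p: it averaged 33.9 ± 3.04 CPM in vehicle, 118 ± 5.96 CPM with ADM2 and 21.5 ± 2.32 CPM with IL-25 (SD, n = 3), and 50.6 ± 3.86 CPM with both (SD, n = 2). It rose with ADM2 (1.80 ± 0.11, adjusted p = 1.01e-07, edgeR) and with ADM2 added to IL-25 (1.24 ± 0.12, adjusted p = 1.1e-05), and it fell with IL-25 (-0.66 ± 0.11, adjusted p = 0.000621). Prc1, which bundles midzone microtubules, rose with ADM2 (0.98 ± 0.20, adjusted p = 0.00352, edgeR), and so did Pttg1, the securin (0.58 ± 0.12, adjusted p = 0.00476), and Mad2l1, a spindle checkpoint protein (0.70 ± 0.19, adjusted p = 0.0244). With IL-25 present ADM2 again raised Mad2l1 (1.32 ± 0.21, adjusted p = 0.000596, edgeR), and it raised Cenpa, the centromeric histone (0.90 ± 0.20, adjusted p = 0.00622). Mad2l1 with ADM2 lost its call without vehicle replicate 1 (adjusted p = 0.0974) or 3 (0.138), or ADM2 replicate 1 (0.0956) or 3 (0.0654), and Cenpa lost it without IL-25 plus ADM2 replicate 3 (adjusted p = 0.133). The list medians were below 0 in these comparisons, while the genes called with ADM2 were all higher.

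Among 20 genes of the p53 list, p53 included, calls were 6 higher and 6 lower with ADM2, 9 higher and 1 lower with IL-25, 6 higher and 4 lower for ADM2 added to IL-25 and 7 higher and 0 lower for both against ADM2, with medians of -0.16, 0.39, -0.24 and 0.24. In that order 30%, 45%, 30% and 35% of the list were called higher, against 7.39%, 13%, 6.53% and 6.17% of all genes, and 30%, 5%, 20% and 0% lower, against 7.43%, 10.4%, 8.1% and 4.68%. These shares were above the background except those lower with IL-25 and for both against ADM2. Because the list was chosen with earlier results of these data known, the shares describe it and are no test of an excess. Gadd45b rose from 644 ± 43.2 to 1727 ± 84.4 CPM with ADM2 (1.42 ± 0.095, adjusted p = 1.41e-07, edgeR) and to 1275 ± 138 CPM with IL-25 (0.99 ± 0.094, adjusted p = 3.54e-06). Gadd45a rose with ADM2 (1.73 ± 0.15, adjusted p = 1.28e-06, edgeR) and with IL-25 (1.11 ± 0.15, adjusted p = 6.39e-05). Gadd45g averaged 201 ± 20.0 CPM in vehicle and 696 ± 111 CPM with IL-25 (1.79 ± 0.13, adjusted p = 2.89e-07, edgeR). Plk2 rose with ADM2 (1.66 ± 0.13, adjusted p = 7.07e-07, edgeR), with IL-25 (0.89 ± 0.13, adjusted p = 0.000186) and with ADM2 added to IL-25 (1.30 ± 0.14, adjusted p = 2.41e-05). Perp, a membrane protein gene, rose from 11.1 ± 1.69 to 34.7 ± 1.82 CPM with ADM2 (1.65 ± 0.15, adjusted p = 2.06e-06, edgeR), and ADM2 added to IL-25 raised it from 8.16 ± 1.04 to 24.98 ± 0.579 CPM (1.62 ± 0.16, adjusted p = 1.06e-05), the smallest p of the list in that comparison. Trp53, the gene of p53, averaged 259 ± 19.5 CPM in vehicle, 174 ± 20.5 CPM with ADM2 and 348 ± 59.7 CPM with IL-25 (SD, n = 3), and 279.7 ± 5.13 CPM with both (SD, n = 2). It was higher with both agents than with ADM2 alone (0.68 ± 0.14, adjusted p = 0.004, edgeR). Its other calls, added after the values were seen, were lower with ADM2 than in vehicle (-0.57 ± 0.12, adjusted p = 0.00481, edgeR) and higher with IL-25 (0.43 ± 0.12, adjusted p = 0.0195), the latter lost without vehicle replicate 1 (adjusted p = 0.0673) or 3 (0.123), or IL-25 replicate 2 (0.0896) or 3 (0.0692). With ADM2 as many genes of the list fell as rose. Besides Trp53, those called lower were Aen (-0.75 ± 0.13), Bbc3 (-0.57 ± 0.15), Phlda3 (-0.43 ± 0.13), Trp53inp1 (-0.41 ± 0.10) and Bax (-0.40 ± 0.13). They were named after the values were seen, and their calls were not checked under the alternatives.

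Among 15 genes tied to quiescence or to slower proliferation, calls were 5 higher and 1 lower with ADM2, 3 higher and 7 lower with IL-25, 7 higher and 2 lower for ADM2 added to IL-25 and 2 higher and 2 lower for both against ADM2, with medians of 0.25, -0.17, 0.31 and -0.16. In that order 33.3%, 20%, 46.7% and 13.3% of the list were called higher, against 7.39%, 13%, 6.53% and 6.17% of all genes, and 6.67%, 46.7%, 13.3% and 13.3% lower, against 7.43%, 10.4%, 8.1% and 4.68%. These shares were above the background except the share lower with ADM2. Those of 13.3% and 20% rest on 2 or 3 of 15 genes and are not read as differing from it. This list too was chosen with earlier results of these data known, so its shares are no test of an excess. Tob1, an antiproliferative adaptor, averaged 19.0 ± 1.27 CPM in vehicle and 45.0 ± 2.20 CPM with ADM2 (1.24 ± 0.12, adjusted p = 6.06e-06, edgeR), and 20.5 ± 3.27 CPM with IL-25 against 50.5 ± 0.0128 CPM with both (1.30 ± 0.14, adjusted p = 1.6e-05). The related Btg1 and Btg2 also rose with ADM2 (0.50 ± 0.07, adjusted p = 0.000159, edgeR; 0.69 ± 0.097, adjusted p = 0.000156), as did Tsc22d3, a glucocorticoid-induced gene (0.90 ± 0.13, adjusted p = 0.000221). With IL-25, Btg1 rose (0.90 ± 0.071, adjusted p = 6.25e-07, edgeR) and Txnip, an inhibitor of glucose uptake, fell (-0.76 ± 0.093, adjusted p = 3.04e-05). Btg2, Ccng1, Ccng2 and Rbl2 each stand in more than 1 list. By edgeR 0 genes of any of the 5 lists were called in the difference of the ADM2 effect with and without IL-25, and 3, 2, 4, 4 and 3 had an unadjusted p below 0.05 in the order given.

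**Figure D5:**
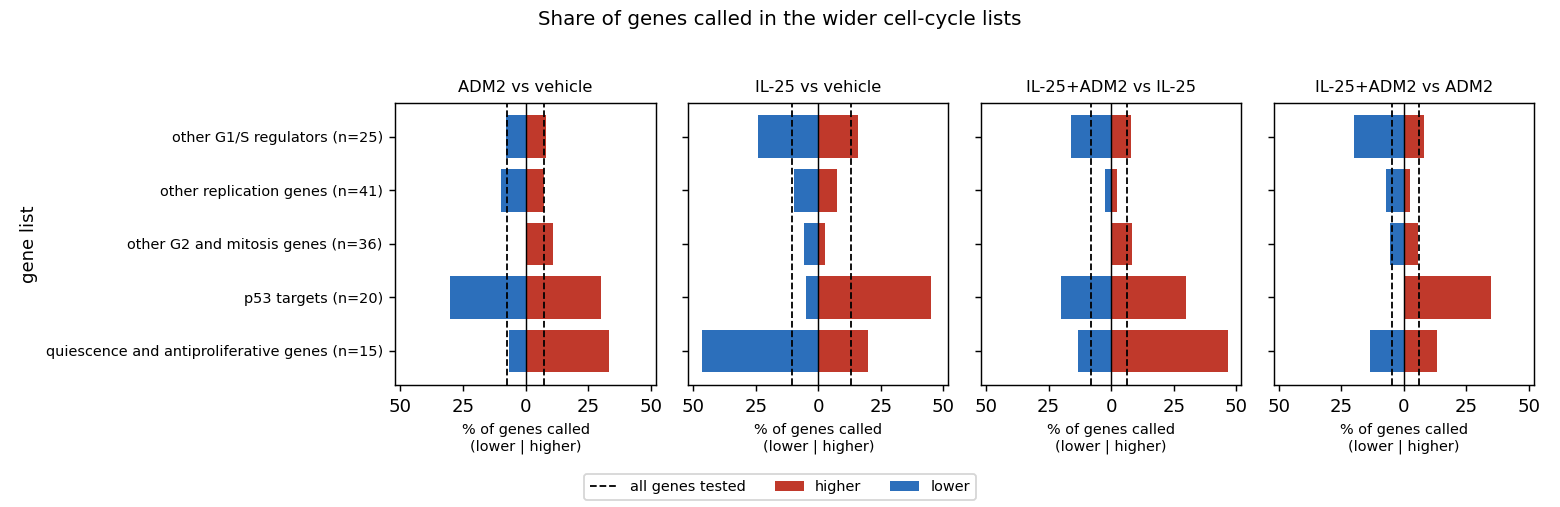
Percent of the genes of each list called higher (red, to the right) or lower (blue, to the left) in 4 comparisons (panels), with the number of genes per list; dashed lines give the percent of all 15028 genes tested. The quiescence list reaches 7 of 15 lower with IL-25 and 7 of 15 higher for ADM2 added to IL-25, and the replication list lies near or inside the dashed lines.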

How the data were processed

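RNA of sorted ILC2s was sequenced as paired-end reads of 150 bases, per the labels' protocols. The authors deposited raw counts per gene, keyed by Entrez Gene ID, and featureCounts, limma and mm10 are named in the submitters' processing notes without roles. For the aligner and annotation, names were not given in the sources used here. Groups were taken from sample titles. Symbols and coordinates came from RefSeq (GRCm38.p6), which matched 25275 of 27179 IDs, and lengths from GENCODE exons. Unmatched IDs, 1.16% to 2.68% of counts, stayed in the tests.

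Counts were fitted with edgeR 4.0.16 (TMM, filterByExpr with a minimum count of 10, 1 mean per group over 11 libraries, quasi-likelihood F test), checked on simulated data. In that check most of the changes put in were missed, and the share of false calls lay above the threshold. A gene that was not called may therefore still have changed. TMM factors fell from 1.09 to 1.12 in vehicle to 0.904 to 0.933 with both agents. The SE is the absolute log2 fold change over the square root of F, so it and the 95% intervals are approximate. Alternatives were DESeq2 1.42.0, limma voom 3.58.1, median-ratio or upper-quartile factors, no filter, a minimum count of 30, only the groups compared, a replicate block, and each library left out. Same-group libraries were distinct (chi-square per degree of freedom 15.6 to 52.5 over 10 pairs). All members are named, and from each wider list at most 4 called genes per comparison, by smallest p. From the p53 list, the genes called lower with ADM2 and the other calls of Trp53 are named besides. The values of 1 marker list are not reported here. Members and lists were chosen with earlier results of these data known. Counting error and overlapping genes limit the low levels.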

Additional observations from a re-analysis of the deposited data

How the results depend on the processing

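Of 25 called results of members in the 5 comparisons, 13 kept their call under all 19 alternatives, and of 180 results not called, 13 passed under at least 1. None changed direction past the threshold. Of 76 called results of the wider lists that were checked, 54 kept their call under all of them. Deviations from group means correlated at -0.151 to 0.124 over 15 same-numbered pairs and at -0.124 to 0.151 over 30 others. The 2 libraries of the combined group deviate by equal and opposite amounts. Their correlations therefore mirror each other, and these ranges cannot exclude a pairing by replicate number. Between the groups of 3 libraries the correlations were -0.131 to 0.0142 for same numbers and -0.0593 to 0.107 for others. Of 11 libraries, 2 correlated best with their own number. With the replicate block, members called fell to 5 with IL-25 (from 9) and 1 for both against ADM2 (from 2), and all genes called for the difference to 2 (from 5). Calls lost there were Cdk4 (adjusted p = 0.0695), Cdkn2c (0.0565), Mcm6 (0.0764) and Plk1 (0.0749) with IL-25, Ccnd3 (0.0803) for ADM2 added to IL-25 and Cdkn1a (0.0707) for both against ADM2. Ccnb2 was gained with ADM2 (0.0468). For both against ADM2, DESeq2 called 5 members and no filter 4. For the difference over all genes, DESeq2 called 47, voom 1, no filter 47 and a minimum count of 30 called 3, and among members DESeq2 and no filter called 1 each.

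Leaving out each library in turn gave 4 to 9 member calls with IL-25, 4 to 8 for ADM2 added to IL-25 and 1 to 3 for both against ADM2. Over all genes it gave 1263 to 2261 calls for ADM2 added to IL-25, 739 to 1926 for both against ADM2 and 0 to 6 for the difference. These fits assume that a lone library of the combined group varies like the others. The median log2 fold change of a class moved as follows. For the G1 genes it was -0.15 to 0.0083 with ADM2, 0.10 to 0.31 with IL-25, -0.79 to -0.64 for ADM2 added to IL-25, -0.17 to -0.010 for both against ADM2 and -0.23 to 0.044 for the difference. For the inhibitors it was -0.012 to 0.12 for the difference. For the G1/S genes it was -0.17 to -0.0035 with ADM2, -0.31 to -0.036 with IL-25, -0.32 to 0.40 for ADM2 added to IL-25, -0.14 to 0.20 for both against ADM2 and -0.34 to 0.39 for the difference. For the replication genes it was -0.16 to 0.064 with ADM2, -0.15 to -0.021 with IL-25, -0.26 to -0.060 for ADM2 added to IL-25, -0.29 to -0.038 for both against ADM2 and -0.18 to -0.0092 for the difference. For the mitosis genes it was -0.38 to -0.058 with IL-25, -0.51 to -0.059 for ADM2 added to IL-25, -0.57 to -0.17 for both against ADM2 and -0.29 to 0.065 for the difference. Upper-quartile scaling moved it to 0.19 for the G1 genes, -0.25 for the inhibitors and -0.12 for the replication genes with IL-25, to -0.69, 0.30 and -0.050 for ADM2 added to IL-25, and to -0.056 for the replication genes in the difference. The cause was not tested. Depth limits the low genes: 8 of 10 mitosis genes lay below 10 CPM, where standard errors with ADM2 were 0.25 to 0.60, and the combined group has 2 libraries.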
